A study of Mus musculus with 12 samples.

Results

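Cultured bone marrow cells of Impdh2 LysM-cKO mice, which lack Impdh2 in myeloid cells, were compared between the culture conditions titled R40D3 and R0D3. The comparison rests on 4 of the 12 libraries of the series, chosen by genotype and title: LysM-cKO R40D3 replicates 1 and 2 and LysM-cKO R0D3 replicates 1 and 2. The question it addresses is how Impdh2-deleted cells respond to osteoclast differentiation conditions. Libraries with the same replicate number were treated as a pair, and values given in pairs below are in the order replicate 1, replicate 2.

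Per the labels' protocols, marrow cells were expanded for 3 days in medium with L929 cell supernatant as a source of M-CSF (equivalent to 20 ng/ml), reseeded overnight, and stimulated with 40 ng/ml RANKL plus this medium. The titles R40D3 and R0D3 are not explained, and the tissue label (osteoclast) and treatment label (osteoclast differentiation) are shared by all 8 cultures, so the titles serve here as names only. The 4 WT libraries at R40D3 and R0D3 differ from the LysM-cKO libraries in genotype and are given beside them where the responses are compared. All 8 culture libraries were fitted in the same model, in which the genotypes share the estimate of the spread and the replicate effect. The Cre is named after LysM, the myeloid lysozyme gene, and the design text places the deletion in myeloid cells that include osteoclast precursors. Ages, sexes, strain and the number of mice behind each culture are not given in the sources used here. The p-values thus measure the spread between the 8 culture libraries, which may be technical. Counts came from whole cultures, in which fewer cells of a type and less RNA per cell cannot be told apart.

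Osteoclasts are multinucleated cells that form by fusion of macrophage-lineage precursors and dissolve bone. RANKL binds RANK on the precursor, and TRAF6, NF-kappaB and AP-1 (Fos and Jun proteins), with calcium signals from ITAM-bearing receptors, lead to the master transcription factor NFATc1. The mature cell seals itself to bone through integrin-based podosomes, acidifies the space with a proton pump, and secretes cathepsin K and matrix metalloproteinases. IMPDH2 catalyses the rate-limiting step of guanine nucleotide synthesis.

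The libraries held 16009146 to 18412495 counts, and 14030 genes were tested in the cultures. Replicates differed by more than counting noise: chi-square divided by its degrees of freedom was 30.2 at R40D3 and 22.3 at R0D3. Impdh2 (ENSMUSG00000062867, protein coding, chromosome 9, 108560286 to 108565584, plus strand, GRCm38) was at 7.72 and 8.38 CPM (counts scaled to a common library size) at R40D3 and at 7.36 and 7.03 CPM at R0D3 in LysM-cKO. In WT it was at 25.7 and 27.7 CPM at R40D3 and at 22.3 and 28.2 CPM at R0D3. All 4 LysM-cKO libraries lay below all 4 WT libraries, and the residual LysM-cKO level did not pass the test between conditions (log2 fold change 0.16, SE 0.15, edgeR adjusted p 0.518). Throughout, SE is the absolute log2 estimate divided by the square root of edgeR's F statistic. It is an approximation that restates the test and was not estimated separately. Counts of Impdh2 may be shared with a near-identical processed pseudogene.

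Of the 14030 genes, 2983 (21.3%) were called at an adjusted p under 0.05 in the edgeR quasi-likelihood test: 1830 (13.0%) were higher and 1153 (8.22%) lower at R40D3. Both R40D3 libraries lay above both R0D3 libraries for 27.3% of all genes and below them for 22.5%. Of the called genes, 1704 of the 1830 higher and 1066 of the 1153 lower had no such overlap. Lack of overlap therefore adds little to a call. The rises were larger than the falls. Among called genes, 730 were at least 2-fold higher and 256 at least 2-fold lower, and 221 against 10 changed by at least 8-fold. Called genes that were higher took 16.0% and 20.2% of all counts at R40D3 and 9.57% and 9.63% at R0D3. Those that were lower took 14.9% and 13.8% at R40D3 and 21.1% and 22.3% at R0D3.

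Changes were larger in the second pair of libraries. The median log2 difference of genes called higher was 0.66 within pair 1 and 0.84 within pair 2, and that of genes called lower was −0.48 and −0.68. Pair 2 gave the larger rise for 1444 of 1830 genes and the larger fall for 969 of 1153, and 2935 of the 2983 had the same sign in both pairs. Without the replicate block, 1422 genes passed (10.1%), 980 higher and 442 lower, all of them among the 2983. A stricter count is used below beside each group: the calls that also passed without the block and again, with it, when each of the 4 LysM-cKO libraries was left out in turn (5 further fits, called here the 5 fits). Of all genes, 651 higher and 282 lower calls held in all 5 fits. All 5 fits kept the WT libraries in the estimate of the spread. With only the 4 LysM-cKO libraries and no block, 65 of the 138 called genes that the text names lost the call. Tcirg1 and Lipa, described below, are among them. Counts of calls on the lists below are to be read against 13.0% of all genes called higher and 8.22% called lower.

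**Figure D1:**
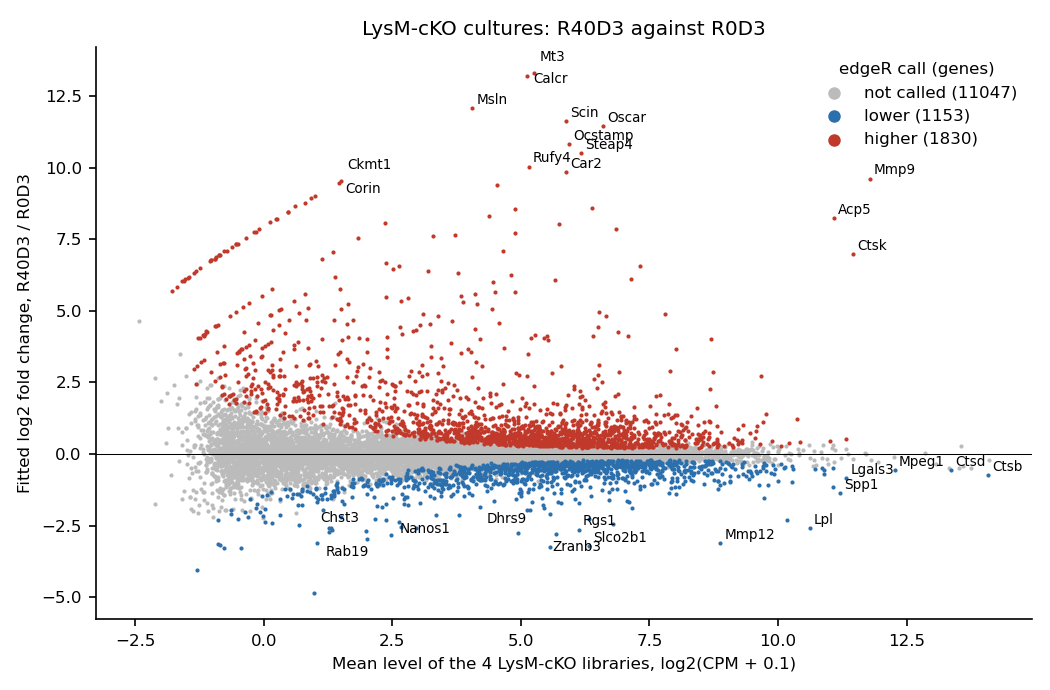
Fitted log2 fold change between R40D3 and R0D3 in LysM-cKO cultures against the mean level of the 4 libraries, log2(CPM + 0.1), 1 point per gene tested, coloured by call. Rises span a wider range than falls, with Mt3 highest at 13.31, and Mmp9, Acp5 and Ctsk combine a large rise with a very high level; fitted values of genes at or near 0 at R0D3 depend on the prior count.

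The labelled cell type was checked against 9 osteoclast markers (Acp5, Ctsk, Calcr, Ocstamp, Dcstamp, Oscar, Mmp9, Itgb3, Atp6v0d2). All 9 were called higher at R40D3. At R0D3, 3 of the 9 were at or near 0: Calcr had 0 counts in both libraries, and Ocstamp and Oscar had 1 count in each. Dcstamp had 16 counts in each, and Mmp9, Acp5, Itgb3, Ctsk and Atp6v0d2 were present, from 13.1 and 4.73 CPM for Mmp9 to 223 and 195 CPM for Atp6v0d2. The R0D3 libraries, although labelled osteoclast, thus held some of the markers and not others. The macrophage markers Adgre1 (1430 and 1290 CPM at R40D3, 1310 and 1370 at R0D3) and Csf1r (2720 and 2070 CPM, 2190 and 1660) were abundant in all 4 libraries, and neither passed the test (edgeR adjusted p 0.911 and 0.0989). Among other macrophage markers, Cd14 and Fcgr1 were called lower at R40D3 (edgeR adjusted p 0.00077 and 0.00359). Cd68 was not called (edgeR adjusted p 0.305).

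Genes of bone resorption and acid secretion had the largest median response among the lists with at least 8 tested members. Of 15 members tested, 14 rose, 0 fell, and 11 rises held in all 5 fits. The median log2 fold change was 3.66, against 0.01 over all genes tested, and was 2.98 within pair 1 and 4.51 within pair 2. Ctsk, the cathepsin that degrades bone collagen, was at 3760 and 7370 CPM at R40D3 and at 63.0 and 23.9 CPM at R0D3 (log2 fold change 6.99, SE 0.59, edgeR adjusted p 0.000114). Mmp9, a secreted gelatinase, was at 5060 and 9070 CPM against 13.1 and 4.73 CPM (log2 fold change 9.62, SE 0.62, edgeR adjusted p 3.27e-05). Acp5, which encodes the tartrate-resistant acid phosphatase used to stain osteoclasts, was at 2850 and 5800 CPM against 14.5 and 12.4 CPM (log2 fold change 8.25, SE 0.37, edgeR adjusted p 3.28e-06). In all 3 genes the groups were far apart, and R40D3 replicate 2 held the highest value. Ctsk lies on chromosome 3 from 95499256 to 95509362, Mmp9 on chromosome 2 from 164940780 to 164955850 and Acp5 on chromosome 9 from 22126727 to 22135711 (GRCm38).

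Calcr, the calcitonin receptor, was at 52.4 and 85.5 CPM at R40D3 and at 0 counts in both R0D3 libraries. With the R0D3 level set to a floor of 3 counts per library it was at least 389-fold higher. Car2, the carbonic anhydrase that supplies protons, rose from 0.172 and 0.0606 CPM to 82.4 and 154 CPM (edgeR adjusted p 1.4e-08). With 4 counts in all at R0D3, its ratio of 976 has a 95% counting interval of 381 to 3590 (exact Clopper-Pearson on the summed counts, counting error only). The rule that named both genes required no overlap between the conditions.

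The transport machinery of the resorbing membrane rose by less. Slc9b2, a sodium/proton antiporter, stood at 230 and 397 CPM against 3.33 and 3.15 CPM (log2 fold change 6.55, SE 0.26, edgeR adjusted p 1.86e-06). Slc4a2, the chloride/bicarbonate exchanger, stood at 242 and 394 against 70.8 and 80.6 CPM (log2 fold change 2.04, SE 0.15, edgeR adjusted p 5.61e-05). Tcirg1, the osteoclast a3 subunit of the proton pump, stood at 649 and 904 against 413 and 418 CPM (log2 fold change 0.88, SE 0.12, edgeR adjusted p 0.00138). These 3 held in all 5 fits without overlap between conditions. The chloride/proton exchanger Clcn7 (log2 fold change 0.75) and its partner Ostm1 (0.50) were also called, but Clcn7 failed without R40D3 replicate 2 or R0D3 replicate 2 and Ostm1 without R40D3 replicate 2. The remaining rises were Mmp14, a membrane-bound metalloproteinase (log2 fold change 3.66), the endosomal sorting gene Snx10 (2.86), Rab38, a small GTPase of lysosome-related organelles (5.67), and Cthrc1 (2.01), the last lost without R40D3 replicate 2. Plekhm1, a regulator of lysosomal traffic, did not pass (0.26, edgeR adjusted p 0.0608), but did with library size alone as scaling (0.0319).

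**Figure D2:**
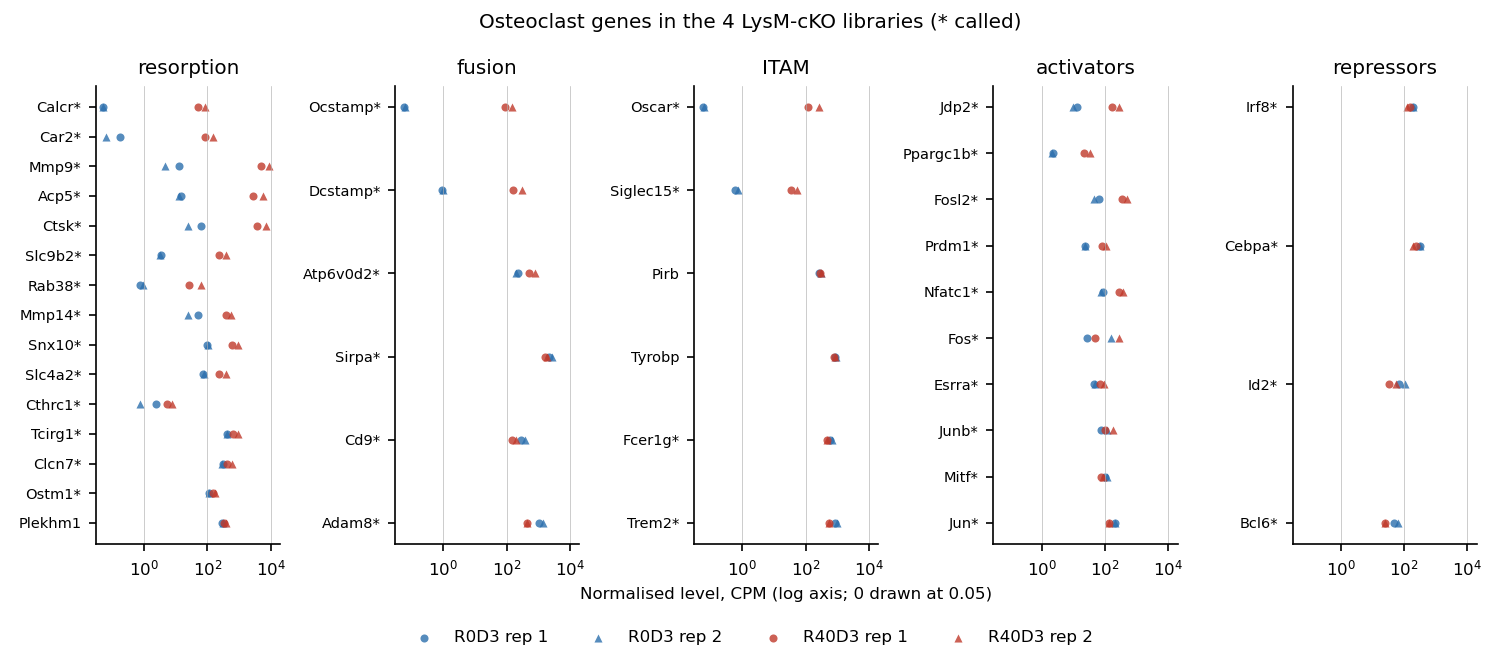
Normalised level in CPM (log axis, 0 drawn at 0.05) of the tested members of 5 osteoclast lists that the text names in each of the 4 LysM-cKO libraries, with R40D3 in red, R0D3 in blue, circles for replicate 1 and triangles for replicate 2; an asterisk marks a call. Calcr and Ocstamp are at or near 0 at R0D3, most resorption genes are separated by condition, and the repressors Cebpa, Id2, Irf8 and Bcl6 lie lower at R40D3.

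Of 15 V-ATPase subunits tested, 13 rose and 1 fell. The V-ATPase is the multisubunit proton pump shared by lysosomes and the resorbing membrane. Its median log2 fold change was 0.73 (0.57 and 0.86 within the pairs), and 8 rises held in all 5 fits. Atp6v1b2 stood at 1450 and 2290 CPM against 717 and 853 CPM (1.23 on the log2 scale, SE 0.15, edgeR adjusted p 0.000862), and Atp6v1d at 286 and 393 against 139 and 143 CPM (1.25, SE 0.11, edgeR adjusted p 0.00016). The single fall was Atp6v0a1, another isoform of the a subunit, at 363 and 374 against 540 and 652 CPM (−0.69, SE 0.09, edgeR adjusted p 0.0013). Thus the a-subunit isoforms Tcirg1 and Atp6v0a1 were called in opposite directions, while Atp6v0a2 was not called (0.22, edgeR adjusted p 0.122).

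Of 20 genes of lysosomal proteins tested, 0 rose and 6 fell (Lamp2, Ctsb, Ctsd, Ctsl, Lipa and Gusb), with a median of −0.10. Lipa, the lysosomal acid lipase, was at 1460 and 1470 CPM at R40D3 and at 2170 and 2570 at R0D3 (−0.70 on the log2 scale, SE 0.12, edgeR adjusted p 0.00448), and it was the only member of the 6 to hold in all 5 fits. Ctsl, cathepsin L, was at 952 and 710 against 1910 and 1380 CPM (−0.98, SE 0.09, edgeR adjusted p 0.000194), but not without the block (edgeR adjusted p 0.0858). Ctsb and Ctsd, cathepsins named for their high level per kilobase at R0D3, fell by 0.75 and 0.57 on the log2 scale with the block (edgeR adjusted p 0.0245 and 0.0338) and did not pass without it (0.142 and 0.155). Of the exonic length of Ctsd, 34.4% overlaps another gene, so its counts are uncertain. The other genes named for a high level per kilobase at R0D3 were Spp1, osteopontin (1260 and 1350 CPM against 3000 and 3780 CPM, log2 fold change −1.38, edgeR adjusted p 0.000177), Lgals3, galectin-3 (1770 and 1930 against 2980 and 3620 CPM, −0.83, edgeR adjusted p 0.00461), and Mpeg1, perforin-2, which did not pass without the block (edgeR adjusted p 0.139).

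Cell fusion genes were mixed. Of 12 tested, 5 rose and 3 fell (4 and 2 in all 5 fits), with a median of 0.13. The share called was 66.7%, against 21.3% of all genes. Ocstamp and Dcstamp, which encode membrane proteins needed for fusion, rose to high levels, Ocstamp from near 0 and Dcstamp from a low level. Ocstamp was at 90.7 and 154 CPM against 0.0575 and 0.0606 CPM, a count ratio of 2030 with an interval of 561 to 16800. Dcstamp was at 155 and 300 CPM against 0.920 and 0.970 CPM (log2 fold change 7.86, SE 0.33, edgeR adjusted p 2.31e-06). Neither showed overlap between conditions. Atp6v0d2, a pump subunit also tied to fusion, rose from a higher base, at 531 and 826 against 223 and 195 CPM (log2 fold change 1.69, SE 0.22, edgeR adjusted p 0.00113). The tetraspanin gene Cd9 (153 and 201 against 297 and 393 CPM) and the metalloproteinase-disintegrin gene Adam8 (430 and 448 against 1060 and 1470 CPM) fell by 0.96 and 1.53 on the log2 scale (edgeR adjusted p 0.000527 and 0.000606). Sirpa, a receptor for Cd47, fell with the block only (log2 fold change −0.48, edgeR adjusted p 0.0255, and 0.12 without it).

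Genes of the podosome and sealing zone, the adhesive ring of the resorbing cell, rose in 9 of 16 tests and fell in 1, with a median of 0.53. Of the rises 7 held in all 5 fits, and the fall (Ptk2b, encoding the kinase Pyk2, −0.41) did not. Itgb3, which pairs with Itgav as the vitronectin receptor, was at 282 and 579 CPM against 15.5 and 12.4 CPM (log2 fold change 4.89, SE 0.40, edgeR adjusted p 9.41e-05). Itgav rose (1.28, SE 0.11, edgeR adjusted p 0.000141) from 136 and 153 to 299 and 407 CPM. Src, the kinase that organises the ruffled border, stood at 134 and 211 against 10.9 and 4.49 CPM (4.44, SE 0.34, edgeR adjusted p 6.9e-05). These values put R40D3 replicate 2 highest in each case. Scin, an actin-severing protein, was at 92.1 and 143 CPM against 1 and 0 counts, a count ratio of 3910 with an interval of 702 to 155000. The other 6 genes on the list were not called.

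The receptor RANK and several of its signalling genes rose. On the list of RANK and M-CSF signalling, 9 of 20 rose and 0 fell, with 7 holding in all 5 fits and a median of 0.27. Tnfrsf11a, which encodes RANK, was at 121 and 156 CPM against 79.5 and 81.9 CPM (log2 fold change 0.77, SE 0.10, edgeR adjusted p 0.000788). Nfkb2 and Relb, the subunits of the non-canonical dimer, were at 135 and 157 against 60.5 and 60.6 CPM (1.27, SE 0.08, edgeR adjusted p 2.04e-05) and at 40.3 and 45.8 against 23.1 and 20.8 CPM (0.97, SE 0.12, edgeR adjusted p 0.000816). Chuk, a kinase that acts upstream of this dimer, was not called (−0.06, edgeR adjusted p 0.685), nor were Rela and Nfkb1, of the canonical dimer (−0.05 and 0.12). The adaptors Traf2 (0.76), Traf3 (1.00) and Traf6 (0.68) rose, as did Nfkbia, the inhibitor that NF-kappaB itself induces. Nfkbia stood at 123 and 190 CPM against 40.1 and 47.9 CPM (log2 fold change 1.81, SE 0.10, edgeR adjusted p 1.3e-05). The groups did not overlap for any of these called genes.

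Among 18 transcription activators of the lineage, 10 rose and 3 fell, with 7 and 1 holding in all 5 fits and a median of 0.48. Nfatc1 was at 287 and 382 CPM against 84.9 and 76.0 CPM (log2 fold change 2.05, SE 0.14, edgeR adjusted p 4.11e-05). The AP-1 genes split: Fosl2 rose from 66.2 and 46.3 to 342 and 499 CPM (2.89, SE 0.25, edgeR adjusted p 0.000144), Jdp2 from 13.2 and 9.52 to 169 and 282 CPM (4.26, SE 0.24, edgeR adjusted p 1.42e-05), and Jun fell from 207 and 213 to 136 and 137 CPM (−0.62, SE 0.10, edgeR adjusted p 0.00223). Fos depended on the pairing. It was at 50.2 and 277 CPM at R40D3 and at 27.4 and 158 CPM at R0D3, so that replicate 2 was higher at both conditions and the groups overlapped (log2 fold change 0.83, edgeR adjusted p 0.00345, and 0.748 without the block). Junb overlapped likewise (0.52, edgeR adjusted p 0.00234, and 0.515 without the block). Prdm1, which encodes the repressor Blimp1 that acts on anti-osteoclast genes, stood at 84.1 and 111 against 23.0 and 23.5 CPM (2.06, SE 0.13, edgeR adjusted p 2.49e-05). Mitf, listed as an activator, fell with the block (−0.42, edgeR adjusted p 0.00442, and 0.0513 without it).

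Repressors of the programme moved the other way. Of 8 tested, 0 rose and 5 fell, with 3 holding in all 5 fits and a median of −0.63 (−0.47 and −0.72 within the pairs). Bcl6, a target that Blimp1 represses, was at 24.2 and 25.9 CPM at R40D3 and at 48.5 and 63.9 at R0D3 (log2 fold change −1.16, SE 0.15, edgeR adjusted p 0.000953). Each R40D3 library was below each R0D3 library. Cebpa also held (−0.55), while Irf8 (−0.47, edgeR adjusted p 0.0111) and Id2 (−0.98, edgeR adjusted p 0.00104) did not pass without the block (0.0829 and 0.0648).

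Genes of ITAM costimulation, receptors and adaptors together, were called in both directions. Of 14 genes, 4 rose and 4 fell (3 and 3 in all 5 fits), with a median of −0.10. Oscar, the osteoclast collagen receptor on chromosome 7 from 3609813 to 3616157, had the smallest p of all genes tested, at 119 and 268 CPM against 0.0575 and 0.0606 CPM (edgeR adjusted p 7.8e-10). Its count ratio was 3190, with an interval of 882 to 26300. Siglec15, a sialic acid receptor that also signals through ITAM adaptors, was at 33.2 and 52.6 against 0.575 and 0.728 CPM (log2 fold change 6.01, SE 0.18, edgeR adjusted p 3.15e-07). Another receptor gene, Trem2, fell from 834 and 990 to 532 and 540 CPM (−0.76, SE 0.10, edgeR adjusted p 0.000979), and the adaptor Fcer1g from 609 and 670 to 462 and 465 CPM (−0.46, SE 0.07, edgeR adjusted p 0.00257). The adaptor gene Tyrobp (−0.13, edgeR adjusted p 0.262) was not called. Neither was Pirb (0.05, edgeR adjusted p 0.712), which is on the list but encodes an inhibitory receptor.

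The promoters of a few of these genes were read to show what AP-1, NF-kappaB and PU.1 motifs look like in genes that responded. For 10201 of the 14027 symbols tested, RefSeq promoter windows (250 bases before to 50 after the start, GRCm38.p6) were found by symbol, including 152 of 221 genes called higher by at least 8-fold and 191 of 256 called lower by at least 2-fold. Both strands were searched for exact letters. The AP-1 motif TGANTCA was in 6.4% of all genes with a window, 10.5% of the strong rises and 11.0% of the strong falls. The PU.1 motif GAGGAAGT was in 4.1%, 3.95% and 10.5%, an NF-kappaB consensus motif in 0.52%, 0.658% and 0.0%, the ERR half-site AAGGTCA in 3.92%, 6.58% and 3.14%, the CACGTG E-box in 11.7%, 6.58% and 8.9%, and the short NFAT core GGAAA in 63.7%, 60.5% and 69.6%. These shares are descriptions, and a match is not evidence of binding. The 250 bases before the start are printed 5′ to 3′ on the gene's strand, with matches other than the NFAT core in capitals (AP-1 in Rufy4 and Prdm1, NF-kappaB in Nfkbia, PU.1 on the reverse strand in Mmp12). They lie at chr1:74125291-74125540 (plus), chr12:55492648-55492897 (minus), chr10:44458749-44458998 (minus) and chr9:7344147-7344396 (plus, the window with the match of 2).
Rufy4: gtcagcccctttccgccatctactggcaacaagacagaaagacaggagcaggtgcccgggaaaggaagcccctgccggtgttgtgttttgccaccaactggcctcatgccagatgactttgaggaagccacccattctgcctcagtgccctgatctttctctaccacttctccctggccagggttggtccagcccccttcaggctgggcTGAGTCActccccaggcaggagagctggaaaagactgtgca
Nfkbia: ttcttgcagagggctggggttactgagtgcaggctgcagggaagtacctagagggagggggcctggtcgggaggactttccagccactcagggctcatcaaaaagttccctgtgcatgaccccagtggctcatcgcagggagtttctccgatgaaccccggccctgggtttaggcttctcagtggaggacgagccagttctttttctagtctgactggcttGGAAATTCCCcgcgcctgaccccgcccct
Prdm1: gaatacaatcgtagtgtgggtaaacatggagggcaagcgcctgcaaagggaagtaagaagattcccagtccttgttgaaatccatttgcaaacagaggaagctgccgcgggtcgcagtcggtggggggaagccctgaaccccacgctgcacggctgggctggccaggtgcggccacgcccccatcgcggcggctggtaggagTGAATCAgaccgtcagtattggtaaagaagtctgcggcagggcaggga
Mmp12: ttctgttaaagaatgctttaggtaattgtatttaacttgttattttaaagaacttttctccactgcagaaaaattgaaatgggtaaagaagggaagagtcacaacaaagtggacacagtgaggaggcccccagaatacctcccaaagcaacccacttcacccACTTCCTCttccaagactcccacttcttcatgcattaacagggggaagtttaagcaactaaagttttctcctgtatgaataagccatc

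The first 3 of these genes rose and Mmp12, a macrophage elastase, fell. Rufy4, an autophagy-linked adaptor, was at 53.5 and 88.2 CPM against 1 count in each R0D3 library, a count ratio of 1180 with an interval of 326 to 9740 (edgeR adjusted p 1.4e-08). Mmp12 was at 106 and 91.7 CPM at R40D3 and at 829 and 856 CPM at R0D3 (log2 fold change −3.11, SE 0.14, edgeR adjusted p 3.28e-06). For both genes, lack of overlap between conditions was required by the rule that named them.

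Other large rises lay outside the osteoclast lists or at their edge. Mt3, a metallothionein better known from brain, was at 48.7 and 103 CPM against 0 counts, at least 428-fold higher, while its relatives Mt1 (72.8 and 103 against 48.2 and 60.4 CPM) and Mt2 (10.2 and 14.9 against 5.81 and 6.97 CPM) rose by 0.68 and 0.96 with the block and did not pass without it (edgeR adjusted p 0.0862 and 0.0648). Msln, mesothelin, was at 14.1 and 51.8 CPM against 0 counts, at least 186-fold higher. Steap4, a metalloreductase, was at 94.7 and 194 CPM against 3 counts in all, a ratio of 1590 with an interval of 542 to 7690. Mt3, Msln and Steap4 were named by a rule that required no overlap between the conditions. Among them, Msln varied most between the R40D3 libraries. Corin, a membrane protease (2.96 and 7.64 CPM), and Ckmt1, a mitochondrial creatine kinase (3.49 and 7.39 CPM), also had 0 counts at R0D3 and were at least 29.9-fold and 30.7-fold higher. Kbtbd11 was at 129 and 204 against 0.345 and 0.485 CPM (log2 fold change 8.61, edgeR adjusted p 1.4e-08), and 24.8% of its exonic length overlaps another gene. In all, 43 called genes were at 0 in both R0D3 libraries, and 0 called genes were at 0 in both R40D3 libraries.

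The list of ligands and coupling factors made by osteoclasts also holds some receptors. It gave 7 rises and 3 falls in 11 tests, with a median of 1.68 (6 and 2 in all 5 fits). Pdgfb, a growth factor, was at 90.0 and 157 CPM against 37.8 and 37.5 CPM (log2 fold change 1.68, SE 0.23, edgeR adjusted p 0.00146). Sema4d, a semaphorin that restrains osteoblasts, was at 308 and 474 against 173 and 235 CPM (0.93, SE 0.14, edgeR adjusted p 0.00207). Efnb2 (2.20), Sema7a (1.97), Lif (2.86) and Cd109 (2.77) also rose in all 5 fits. The falls were S1pr1, a receptor for sphingosine 1-phosphate (124 and 87.8 against 199 and 201 CPM, log2 fold change −0.93), and the urokinase gene Plau with its receptor Plaur (−1.18 and −0.90), of which Plaur did not pass without R40D3 replicate 2.

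Nuclear genes of respiration rose together. Of 37 complex I genes tested, 34 rose and 0 fell, with a median log2 fold change of 0.67 (0.55 and 0.76 within the pairs). For complexes II to V, 38 of 39 rose and 0 fell, with a median of 0.83 (0.72 and 0.96). Only 8 of the 34 complex I calls held in all 5 fits, against 23 of the 38, and without R40D3 replicate 2 complex I had 18 calls and a median of 0.52. Ndufv1, the NADH-binding subunit, was at 80.9 and 117 CPM against 41.2 and 45.9 CPM (log2 fold change 1.17, SE 0.09, edgeR adjusted p 8.9e-05). Cyc1, cytochrome c1, was at 122 and 176 against 41.3 and 46.4 CPM (1.75, SE 0.10, edgeR adjusted p 1.87e-05), and Atp5g3, a c-ring subunit of ATP synthase, at 218 and 353 against 91.7 and 125 CPM (1.38, SE 0.12, edgeR adjusted p 0.000118). The conditions did not overlap in these genes.

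All 18 tested genes of the TCA cycle and pyruvate entry rose, 15 of them in all 5 fits, with a median of 1.09 (0.97 and 1.17). Mdh2, mitochondrial malate dehydrogenase, was at 286 and 437 CPM against 94.4 and 121 CPM (log2 fold change 1.73, SE 0.11, edgeR adjusted p 2.42e-05). Idh3a, a subunit of isocitrate dehydrogenase, was at 90.2 and 128 against 31.7 and 40.7 CPM (1.58, SE 0.10, edgeR adjusted p 3.16e-05), and Pdhb, of pyruvate dehydrogenase, at 121 and 175 against 50.4 and 57.4 CPM (1.44, SE 0.10, edgeR adjusted p 5.43e-05). The smallest rises were Sucla2 (0.43) and Suclg2 (0.52). Of 17 glycolysis genes 5 rose and 2 fell (41.2% called, against 21.3% of all genes), with a median of 0.15. Of these calls 0 held in all 5 fits. Eno1, enolase, had the smallest p of them (0.60, edgeR adjusted p 0.000423, and 0.122 without the block). Gapdh was at only 4.92 and 4.99 CPM, and its reads may be divided among its many pseudogenes.

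Of 11 regulators of mitochondrial biogenesis, 4 rose, and 2 of these held in all 5 fits: Ppargc1b and its partner Esrra. Ppargc1b, the PGC-1 coactivator, was at 22.7 and 35.0 CPM against 2.36 and 2.06 CPM (log2 fold change 3.68, SE 0.29, edgeR adjusted p 8.17e-05), whereas Ppargc1a had 0 counts in all 4 libraries. Esrra, the orphan receptor ERR alpha, was at 68.7 and 92.4 against 45.5 and 48.7 CPM (0.76, SE 0.10, edgeR adjusted p 0.000904). Among the 13 protein-coding genes of the mitochondrial genome, 6 rose with the block and 0 without it, with a median of 0.48, and no call held in all 5 fits. mt-Cytb was at 3050 and 2970 CPM against 2390 and 1790 CPM (0.54, SE 0.12, edgeR adjusted p 0.0128, and 0.119 without the block), and mt-Nd1 did not pass without it either (edgeR adjusted p 0.0795). Mitochondrial genes took 2.48% and 2.44% of all counts at R40D3 and 2.1% and 1.72% at R0D3.

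**Figure D3:**
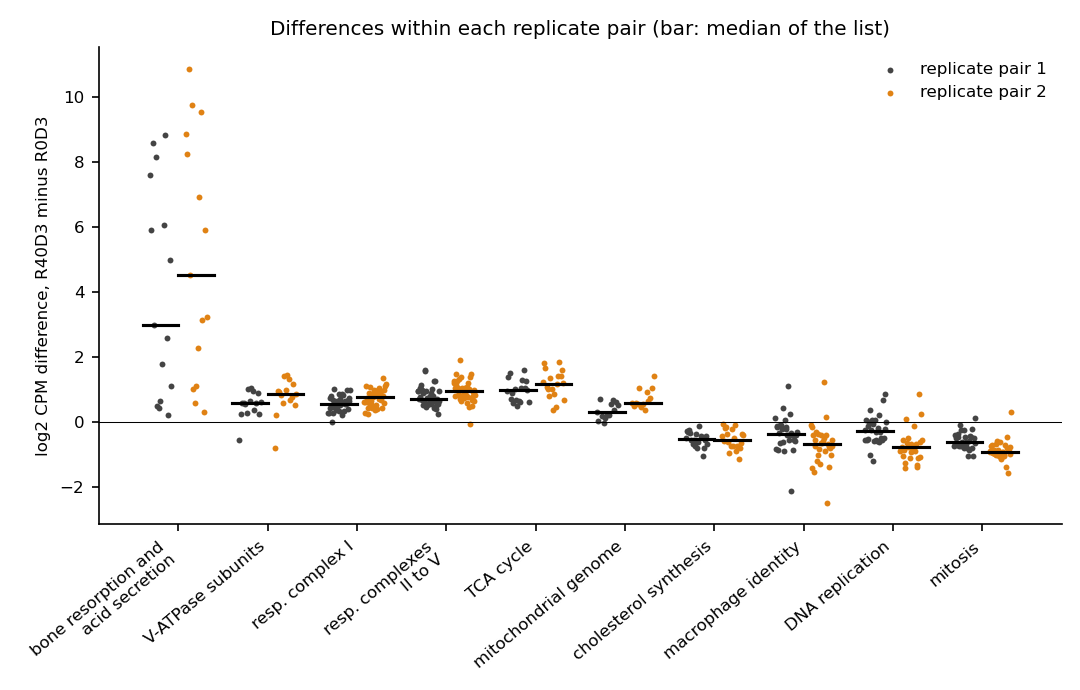
Difference in log2 CPM between R40D3 and R0D3 within replicate pair 1 (grey) and pair 2 (orange) for every tested gene of 10 lists, with a bar at each median. The medians of nuclear respiration and TCA genes lie above 0 in both pairs and that of cholesterol genes below it, and the medians of DNA replication are −0.27 in pair 1 and −0.78 in pair 2.

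Cholesterol synthesis fell. Of 20 tested genes, 15 fell and 0 rose, with a median of −0.56 that was close in the 2 pairs (−0.51 and −0.54). Cyp51, lanosterol demethylase, was at 55.1 and 58.5 against 95.6 and 97.1 CPM (−0.76, SE 0.08, edgeR adjusted p 0.000243), and Sc5d, a late desaturase of the pathway, at 38.6 and 36.8 against 67.1 and 64.2 CPM (−0.80, SE 0.09, edgeR adjusted p 0.000563). Every R40D3 value of these genes was below every R0D3 value. In all 5 fits 5 calls held, Cyp51, Dhcr7 and Sc5d among them. Among the genes named for large falls or small p, 2 act on lipids: Cd36, a fatty acid scavenger receptor, fell from 1800 and 2060 to 416 and 369 CPM (−2.31, SE 0.12, edgeR adjusted p 1.01e-05), and Lpl, lipoprotein lipase, fell from 2100 and 3280 to 332 and 562 CPM (−2.59, edgeR adjusted p 0.000181).

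Macrophage identity genes mostly fell, but unevenly. Of 30 tested, 16 fell and 1 rose, with a median of −0.46, and 8 falls and the rise held in all 5 fits. Cd14, the endotoxin co-receptor, was at 113 and 97.3 CPM against 201 and 262 CPM (log2 fold change −1.13, SE 0.14, edgeR adjusted p 0.00077). Fcgr1, the high-affinity IgG receptor, was at 36.5 and 29.9 against 66.9 and 86.9 CPM (−1.22, SE 0.20, edgeR adjusted p 0.00359), and Cd163, the haemoglobin scavenger receptor, at 48.4 and 29.0 against 89.6 and 70.6 CPM (−1.06, SE 0.13, edgeR adjusted p 0.000667). The abundant genes Adgre1, Cd68 and Lyz2 were not called with edgeR (0.02, −0.15 and −0.48). Lyz2 was called lower with DESeq2 (adjusted p 2.21e-06), and with edgeR without the filter on low counts (0.00151) or in its legacy mode (0.0388), against 0.121. Lyz1, a lysozyme gene closely related to Lyz2, rose from 89.5 and 74.2 to 193 and 173 CPM (1.17, SE 0.11, edgeR adjusted p 0.00023), with reads that the 2 paralogs could share.

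Chemokine genes and their receptors gave 7 falls and 2 rises in 17 tests, with a median of −0.80 (5 and 2 in all 5 fits). The chemokine receptor gene Ccr1 rose from 28.5 and 27.7 to 149 and 275 CPM (2.88, SE 0.27, edgeR adjusted p 0.0002). The ligands Ccl3 (−0.93), Ccl4 (−1.94), Ccl6 (−0.96) and Ccl7 (−1.30) fell, while Ccl9, a chemokine made by osteoclasts, rose from 236 and 373 to 510 and 681 CPM (0.98, SE 0.13, edgeR adjusted p 0.00105). The remaining named falls were Slco2b1 (27.1 and 6.53 against 189 and 96.6 CPM, log2 fold change −3.21), Dhrs9 (−2.76), Zranb3 (−2.80), Rab19 (−2.98), Nanos1 (−2.83), Chst3 (−2.68), Rgs1 (12.2 and 26.7 against 81.1 and 159 CPM, −2.64) and Bcl2a1b (25.8 and 29.2 against 131 and 134 CPM, −2.27). Bcl2a1b has near-identical copies and 49.1% of its exonic length overlaps another gene, so its counts are uncertain.

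Cell cycle genes were lower at R40D3, but their calls depended on single libraries. Of 30 mitosis genes 12 fell and 0 rose, with a median of −0.80, and of 30 DNA replication genes 10 fell and 1 rose, with a median of −0.61. Replicate 2 was higher than replicate 1 at both conditions: Mki67, a marker of cycling cells, was at 66.5 and 103 CPM at R40D3 and at 110 and 196 CPM at R0D3 (log2 fold change −0.84, edgeR adjusted p 0.0434, and 0.173 without the block). Without R0D3 replicate 2 the mitosis list had 0 calls and a median of −0.38, and the replication list 1 call lower and −0.15. Without R0D3 replicate 1 they had 26 and 21 calls lower, with medians of −1.11 and −0.93. Pcna, the sliding clamp of DNA polymerase, was the member that held in all 5 fits, at 82.9 and 105 CPM against 168 and 282 CPM (−1.24, SE 0.16, edgeR adjusted p 0.00115). Cdkn1a, which encodes the cell cycle inhibitor p21, was at 263 and 298 against 336 and 432 CPM and fell with the block only (−0.45, edgeR adjusted p 0.0171, and 0.0859 without it).

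Purine and guanine nucleotide synthesis, the pathway of the deleted enzyme, was called about as often as all genes. Of 22 genes 1 rose and 3 fell (18.2% called, against 21.3% of all genes), and the median was 0.08. Impdh1, the sister isoform of the deleted enzyme, was at 29.6 and 31.6 CPM against 31.8 and 36.9 CPM (log2 fold change −0.17, SE 0.10, edgeR adjusted p 0.282). Gmps, the next enzyme, was at 48.0 and 48.7 against 41.6 and 42.5 CPM (0.20, SE 0.08, edgeR adjusted p 0.118). Aprt, the adenine salvage enzyme, fell in all 5 fits (71.0 and 74.3 against 95.7 and 121 CPM, −0.57, edgeR adjusted p 0.00295), and Hprt, which salvages guanine, fell with the block only (−0.41, edgeR adjusted p 0.0227, and 0.212 without it).

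**Figure D4:**
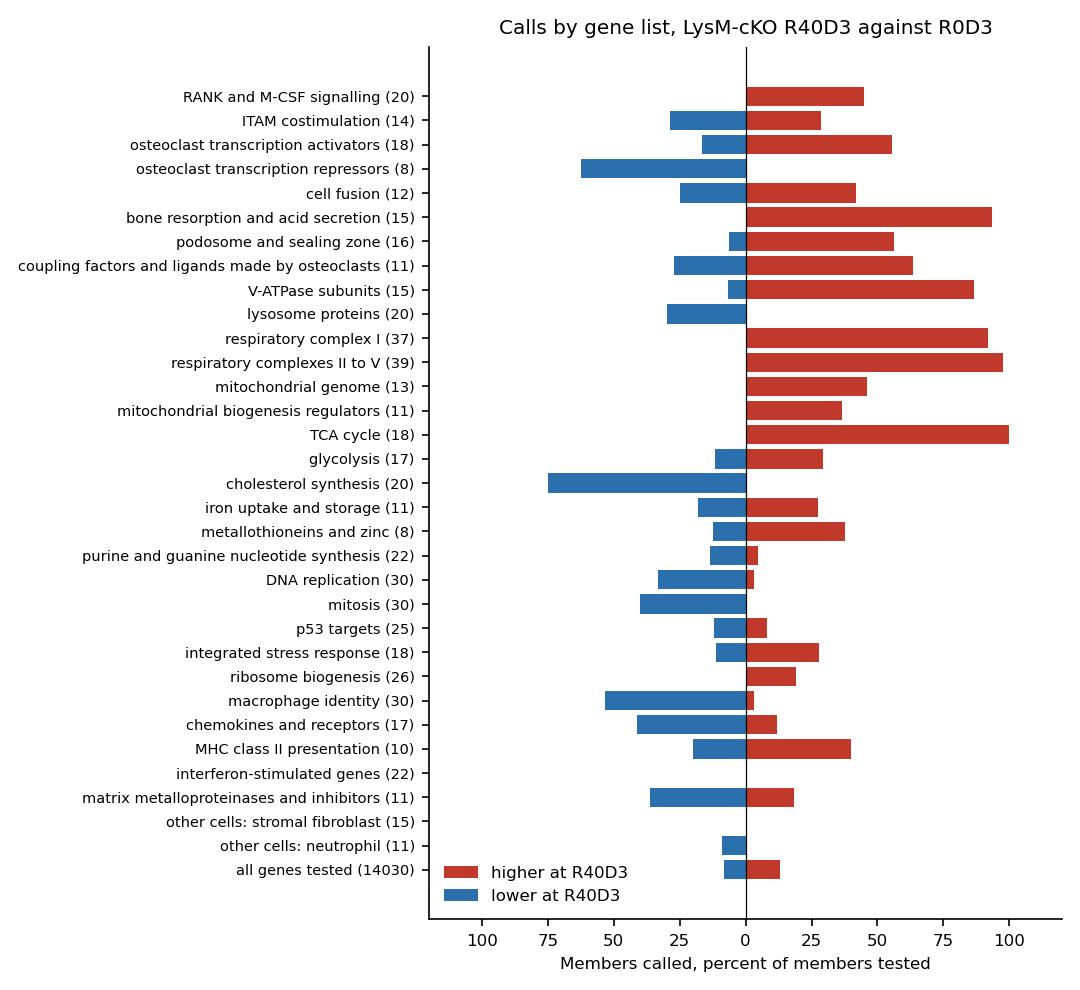
Percent of the tested members of each list (number tested in brackets) called higher at R40D3 (red, to the right) or lower (blue, to the left) in LysM-cKO cultures, for lists with at least 8 members tested, with all genes in the bottom row. TCA cycle, respiration and resorption lists are almost wholly red, cholesterol synthesis, repressors and macrophage identity mostly blue, and the interferon list has 0 calls.

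Markers of other cells that such cultures could hold were read as well. Of 15 stromal fibroblast genes tested 0 were called. Their summed level in LysM-cKO was 2470 and 862 CPM at R40D3 and 2600 and 1010 CPM at R0D3. In LysM-cKO it thus followed the replicate number and not the condition. In WT the sum was 2770 and 2860 CPM at R40D3 and 2300 and 2220 CPM at R0D3, so the gap between replicates was not shared by WT. Col1a1 alone was at 780 and 225 CPM against 834 and 267 CPM in LysM-cKO. Of 11 neutrophil genes 1 fell, the collagenase Mmp8 (27.8 and 22.9 against 62.7 and 106 CPM, log2 fold change −1.71), which did not pass without R40D3 replicate 2 or R0D3 replicate 2. Cd4 rose (235 and 85.3 against 52.4 and 10.4 CPM, 2.52, edgeR adjusted p 4.98e-05, and 0.177 without the block), and so did Trac, the other of the 2 T and NK cell genes tested, with 18 and 10 counts against 0 (at least 4.43-fold higher, edgeR adjusted p 0.00682, held in all 5 fits). The T cell genes Cd3d and Cd3g were at 0 counts in all 4 libraries. Of 2 dendritic cell genes tested, the factor Zbtb46 rose (2.91 and 3.45 against 0.402 and 0.303 CPM) and the integrin Itgax fell (21.8 and 27.3 against 91.9 and 68.8 CPM), both in all 5 fits. Of 4 B cell genes 1 fell, Ighm (−0.48), and of 4 megakaryocyte genes 1 fell, Pf4 (−1.05), and neither held in all 5 fits. No erythroid gene passed the filter on low counts, and 0 of 4 osteoblast genes were called. The part of these genes in the results above was not tested.

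The LysM-cKO response was set beside that of WT, which shares no library with it but was fitted in the same model. WT gave 3977 calls (28.3%), 2346 (16.7%) higher and 1631 (11.6%) lower, and without the block 2367 (16.9%), 1593 (11.4%) higher and 774 (5.52%) lower. Of the genes called higher in LysM-cKO 86.8% were called higher in WT, which is 67.7% of the WT list, and for the lower calls the shares were 76.7% and 54.2%. No gene was called in opposite directions, and of 510 LysM-cKO genes not called in WT, 482 had the same sign there. The list medians in LysM-cKO and WT were 3.66 and 3.81 for resorption, 0.73 and 1.04 for the V-ATPase, 0.67 and 0.91 for complex I, 1.09 and 1.32 for the TCA cycle, −0.56 and −0.67 for cholesterol synthesis and −0.46 and −0.66 for macrophage identity. They were −0.80 and −0.51 for mitosis (12 and 1 called lower), −0.61 and −0.34 for DNA replication (10 and 1) and −0.80 and −0.46 for chemokines (7 and 7). Differences between list medians were not tested.

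The difference between the 2 responses was tested as an interaction. With edgeR, 0 of 14030 genes passed with the block and 0 without it, with 841 (5.99%) and 248 (1.77%) at an unadjusted p under 0.05. DESeq2 with the block gave 6 calls, 1 higher (C3) and 5 lower in LysM-cKO (Cd109, Arsb, Atp2b4, Tubb6 and Itpr3). The 3 smallest edgeR p belonged to Cd109, Arsb and C3. Cd109, a membrane protein that binds TGF-beta, went from 15.6 and 31.7 to 122 and 193 CPM in LysM-cKO and from 9.61 and 13.4 to 160 and 232 CPM in WT, a difference of −1.33 between the log2 fold changes (SE 0.17, edgeR adjusted p 0.579). Arsb, a lysosomal sulfatase, went from 35.6 and 59.2 to 533 and 1040 CPM in LysM-cKO and from 29.7 and 36.0 to 1080 and 1560 CPM in WT (−1.29, SE 0.20, edgeR adjusted p 0.579), and 39.9% of its exonic length overlaps another gene. C3, the central complement component, rose more in LysM-cKO, from 25.8 and 18.8 to 122 and 93.2 CPM against 37.5 and 26.4 to 107 and 62.8 CPM (0.89, SE 0.14, edgeR adjusted p 0.579). An interaction p above the threshold does not show that the responses were equal.

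**Figure D5:**
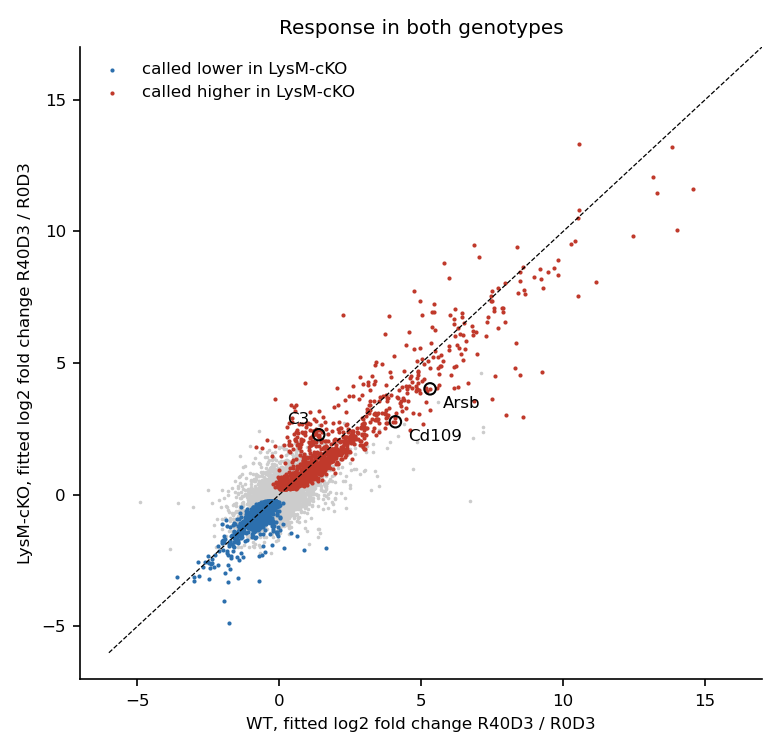
Fitted log2 fold change between R40D3 and R0D3 in LysM-cKO (vertical) against WT (horizontal) for each gene tested, coloured by the LysM-cKO call, with the line of equal response dashed. Called genes run along the line in both directions with scatter, and Cd109 and Arsb (circled) lie below it and C3 above it. Other large rises also lie off the line. Rufy4 (10.04 in LysM-cKO, 14.01 in WT) and Mmp9 (9.62 and 10.41) are below it and Mt3 (13.31 and 10.55) above it.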

How the data were processed

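RNA-seq of polyA-selected RNA was deposited by the authors as raw read counts per gene for 55401 identifiers, 99.5% of them paired with a symbol. Per the submitters' processing notes the tools were FastQC 0.11.2, Trimmomatic 0.36, HISAT2 2.1.0 and DESeq2 1.12.4, with GRCm38. The counting tool and its strand setting are not given in the sources used here, so antisense and overlapping genes cannot be told apart.

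From these counts, edgeR 4.0.16 (R 4.3.3) fitted quasi-likelihood models to all 8 culture libraries with TMM scaling, its default filter on low counts (14030 genes kept), a term per group and the replicate number as a block. Benjamini-Hochberg adjustment ran over all genes, with a threshold of 0.05. CPM use the scaled library sizes, and differences within pairs are of log2 CPM with a prior count of 2. The pairing comes from the replicate numbers in the titles. Same-numbered R40D3 and R0D3 libraries deviated together (r = 0.609 over 14030 genes in LysM-cKO, 0.343 to 0.609 over all pairs of groups), though with 2 replicates the titles do not say what a number marks. On simulated counts of this comparison with 14030 genes, the fit recovered 73 of 100 genes changed by 1 on the log2 scale and 92 of 100 changed by 2, with 0 false calls. These counts had no replicate effect in the LysM-cKO libraries, followed only the trend of spread with level, and had few changed genes. The rates therefore do not carry over to the data.

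The members and lists were chosen with earlier results of these data known. Genes named outside lists were Impdh2, the 12 largest rises and 10 largest falls (at least 5 CPM in the higher group, same direction in both pairs, no overlap), the 5 smallest p in each direction under the same conditions, the 5 called genes highest per kilobase in each direction, and the 3 smallest p for the difference between genotypes. DESeq2 1.42.0, other scalings and filters, no block, and leaving out each library were the alternatives. A few genes that this rule or a list covers are not reported here.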

Additional observations from a re-analysis of the deposited data

Results flagged for a closer look

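The median of the 15 stromal fibroblast genes had opposite signs in the 2 genotypes. This median log2 difference between R40D3 and R0D3 was −0.12 and −0.24 in the LysM-cKO pairs and 0.24 and 0.35 in the WT pairs, so that both pairs of each genotype had the same sign and the mean difference was −0.48. This difference was not tested. In all, 0 of the 15 genes were called in LysM-cKO and 1 was called in WT (lower), and the LysM-cKO median ran from −0.753 to 0.322 when a library was left out.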

How the results depend on the processing

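Without the replicate block, the LysM-cKO comparison gave 1422 calls (980 higher, 442 lower), and WT gave 2367, with 774 lower. With only the 4 LysM-cKO libraries it gave 455 calls (322 and 133) without the block and 3711 (1950 and 1761) with it. Leaving out 1 library at a time gave 1279 to 2625 calls in LysM-cKO (810 to 1437 higher, 396 to 1188 lower), lowest in total without R40D3 replicate 2, and 2055 to 2991 in WT (1339 to 1786 higher, 716 to 1408 lower). The difference between genotypes had 6 calls with DESeq2 (1 higher, 5 lower) and 0 to 1 when a library was left out (0 higher, 0 to 1 lower, the 1 without LysM-cKO R0D3 replicate 1). List medians kept their sign under every alternative run for 26 of 32 lists. Those that reversed were iron (−0.365 to 0.000214 when a library was left out), purine (−0.031 to 0.101), stress response (−0.113 to 0.323), interferon (−0.178 with at least 5 CPM in 2 libraries, and −0.316 to 0.208), fibroblast (−0.753 to 0.322) and neutrophil (−0.604 to 0.0667). Of named genes, none of them called, Adgre1 (−0.06 to 0.09, and −0.01 with only the 4 LysM-cKO libraries, with or without the block), Rela (−0.15 to 0.01), Pirb (−0.02 to 0.12), Chuk (−0.15 to 0.03), Gapdh (−0.38 to 0.15) and Col1a1 (−0.86 to 0.43) changed sign. The share of calls that were higher was 61.3%, 57.3% with RLE scaling, 66.6% with library size alone, 52.5% with only the 4 LysM-cKO libraries and the block, and 54.7% and 71.5% without R0D3 replicate 1 and 2. The cause was not tested. In simulated data without a replicate effect in the LysM-cKO libraries, 73 of 100 changes of 1 on the log2 scale were recovered. Real changes can be missed as well, at a rate that this simulation does not give.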

Other observations

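Antigen presentation genes of MHC class II, which load peptides for helper T cells, rose in 4 of 10 tests and fell in 2. The share called was 60.0%, against 21.3% of all genes, and the median log2 fold change was 0.74. Cd74, the invariant chain, was at 87.7 and 86.9 CPM at R40D3 and at 31.0 and 48.7 CPM at R0D3 (1.14, SE 0.20, edgeR adjusted p 0.00457), and it was the only one of these calls to hold in all 5 fits. The exchange factors H2-DMa and H2-DMb1 fell with the block (−0.75 and −0.47) and did not pass without it (edgeR adjusted p 0.0985 and 0.178).

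Of 18 genes of the integrated stress response 5 rose and 2 fell (38.9% called, against 21.3% of all genes, median 0.08), with 1 call in each direction holding in all 5 fits. Of 25 p53 targets 2 rose and 3 fell (20.0% called, near the share of all genes, median −0.06), and 1 call in each direction held in all 5 fits. Atf3, a stress-induced factor, was at 57.0 and 65.5 CPM against 186 and 266 CPM (log2 fold change −1.88, SE 0.17, edgeR adjusted p 0.000181). Plk2, a p53 target, was at 74.7 and 64.1 against 151 and 176 CPM (−1.24, SE 0.12, edgeR adjusted p 0.000194). Both fell without overlap between conditions, but they are single members. On the stress response list more genes rose than fell, and its risers are not named here. Of 26 ribosome biogenesis genes 5 rose and 0 fell (19.2% called, near the share of all genes), and 0 of these calls held in all 5 fits. Of 22 interferon-stimulated genes 0 were called with edgeR.

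Among iron genes, 3 of 11 rose and 2 fell (45.5% called, against 21.3% of all genes). In all 5 fits 1 rise and 0 falls held. Slc40a1, the iron exporter ferroportin, was at 726 and 562 CPM against 1060 and 861 CPM (−0.58, edgeR adjusted p 0.00192, and 0.126 without the block). By gene class, 23.0% of 12328 protein-coding genes were called, 14.8% of 257 lincRNA genes and 6.84% of 570 processed pseudogenes.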
